A study of Mus musculus with 25 samples.

Results

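Chromatin accessibility after rejection of a skin graft, with no pregnancy in between, was compared with that of mice that had met no graft. The comparison uses 7 of the 25 ATAC-seq libraries of the series, the 4 labelled Sensitized and the 3 labelled Naive, picked out by their labels and by no measured value, and all 13527 peaks of the count table. ATAC-seq uses a transposase that cuts DNA where chromatin is open, so the number of reads at a site measures its accessibility. All mice were C57BL/6 females of 8 to 12 weeks. Naive mice had no treatment. Sensitized mice had received allogeneic skin from 2W-OVA.BALB/c donors, which carry the model antigen ovalbumin (OVA), and their cells were taken 30 or more days after grafting. CD8+ T cells that bound OVA tetramers were sorted from spleen and lymph nodes. The labels of Naive and Sensitized name no gate on the receptor PD1. The cells are called T_FGS because the fetus and the graft share the antigen they recognize. As a second comparison, between other groups, 4 S+P C4 libraries were set against 3 N+P C1 libraries: both hold PD1-negative T_FGS after a semi-allogeneic pregnancy, of mice that had first rejected a graft (S+P) or not (N+P). The labels do not tie each library to a separate mouse, so p-values measure spread between libraries, part of which may be technical. For each peak that spread was estimated once, over all 25 libraries. The printed p-values therefore do not rest on the spread of the compared libraries alone.

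A naive CD8+ T cell keeps the genes of cytotoxicity closed and those that hold it in lymphoid organs open. Once it has met antigen and returned to rest as a memory cell, enhancers of effector genes such as those of granzymes, interferon-gamma and inflammatory chemokine receptors remain accessible, which is known to let these genes respond fast on a second encounter. The transcription factors T-bet, Eomes, BLIMP1 and ID2 are known for the effector and memory program, and TCF1, LEF1, BACH2 and SATB1 for the naive and stem-like one.

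Each peak carries the name of the protein-coding gene whose transcription start site (TSS) lies closest. That name is a position, and whether the site regulates the gene was not measured. A normalized count is a read count divided by the size factor of its library. A peak was called opening when it was higher in Sensitized, and closing when it was lower, at an adjusted p under 0.1 and a log2 fold change past 0.9 in either direction (DESeq2). In bulk libraries, more cells with an open site and a more open site per cell cannot be told apart.

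Library totals were between 5974632 and 13165657 counts for Naive and between 10655540 and 15041041 for Sensitized. Markers were checked against the sort: 8 of 10 CD8 T cell genes had at least 1 peak, and their summed normalized count was 9139 to 11847 in Naive and 8548 to 15670 in Sensitized. Of markers of other cells, peaks were assigned to 1 of 11 B cell genes, 2 of 12 myeloid genes, 2 of 6 CD4 T cell or Treg genes, 2 of 6 NK cell genes, 1 of 6 genes of gamma-delta or innate-like T cells and 2 of 7 erythroid genes. Ms4a1, Pax5, Csf1r, Lyz2, Foxp3, Zbtb7b, Ncr1, Sox13 and Gata1 were among those with no peak. Cd8b1 and Trac of the CD8 T cell list had none either, so a missing peak does not show that a cell type is absent. The summed normalized count ranged from 276 to 372 in Naive and from 282 to 401 in Sensitized for the B cell list, and from 4533 to 5248 and from 4579 to 4688 for the NK cell list. For the myeloid list it was 332 to 360 in Naive and 343 to 709 in Sensitized, where 1 of its 2 peaks, near Itgax, opened. The gamma-delta list gave 274 to 279 and 243 to 399.7, the CD4 or Treg list 2226 to 2319 and 1582 to 2441, and the erythroid list 1052 to 1068 and 917 to 1037. The part of other cells in the results was not tested.

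The 4 Sensitized libraries were not alike. Relative to the mean of Naive, the median log2 ratio at the opening peaks was 2.22 in replicate 1, 2.22 in replicate 2, 0.95 in replicate 3 and 1.17 in replicate 4. At the closing peaks it was -2.06, -1.79, -0.57 and -0.67. These peaks were called with the same libraries, so the medians describe how unequal the libraries were and are no test. Across all peaks, on the log2 scale, replicate 1 correlated best with the mean of S+P C4 (r = 0.931) and replicates 3 and 4 with the mean of N+P C5, the PD1-positive CD73-positive cells of N+P mice (r = 0.973 and 0.955). Their correlations with the mean of the other Sensitized libraries were 0.868, 0.918 and 0.937. Replicate 2 correlated best with its own group (0.941). Naive replicate 3 correlated best with the mean of N+P C1 (0.988, against 0.970 with its own group). Opening peaks above every Naive library numbered 975, 977, 915 and 943 of 977, in order of replicate. The corresponding counts of closing peaks below every Naive library were 189, 189, 186 and 189 of 189. All 4 libraries together were above all Naive ones at 905 opening peaks and below them at 186 closing peaks, against 12.7% and 10% of all 13527 peaks (22.7% in either direction). The peaks were called as different between these same libraries, so such counts are largely fixed by the calls and are no test.

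**Figure D1:**
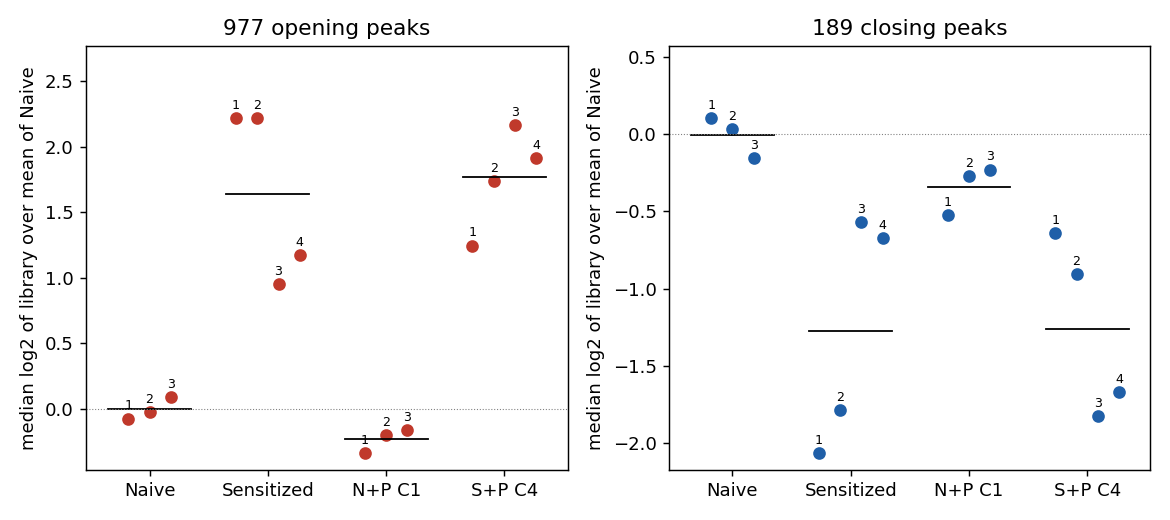
Each point is a library, numbered by replicate, and gives the median over the opening (left) or closing (right) peaks of the log2 ratio of its normalized count to the mean of Naive. Lines are group means. Sensitized replicates 1 and 2 lie at 2.22 and 2.22 and replicates 3 and 4 at 0.95 and 1.17 on the left. N+P C1 and S+P C4 are not the groups contrasted to call these peaks, but took part in the same fit.

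More peaks of the table opened than closed after graft rejection. In Sensitized against Naive T_FGS 977 peaks opened (7.22% of 13527) and 189 closed (1.4%), 8.62% together, while the median log2 fold change over all peaks was -0.01. Opening peaks went from a median normalized count of 67.4 in Naive to 252 in Sensitized, with a median log2 fold change of 1.76 and a highest value of 5.72. Closing peaks went from 467 to 216, with a median of -1.09 and none beyond -1.65. Changes past 4-fold were found at 417 opening peaks, 53 of which were past 16-fold. The balance of opening and closing peaks rests in part on how peaks entered the table. Of the opening peaks 383 are in the peak list of the Sensitized group, and of the closing peaks 177 are in that of Naive. In neither list are 594 opening and 12 closing peaks, which entered through groups with pregnancy.

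The counts depended on which Sensitized libraries entered. Without replicates 3 and 4, 1277 peaks opened and 775 closed. Without replicates 1 and 2, 556 opened and 10 closed. Of the 977 opening peaks, 554 were also called from replicates 3 and 4 alone and 772 in each of the 7 fits that left out 1 library, against 48 of the 189 closing peaks. With offsets fitted by local regression on signal, the split was 710 opening and 358 closing.

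**Figure D2:**
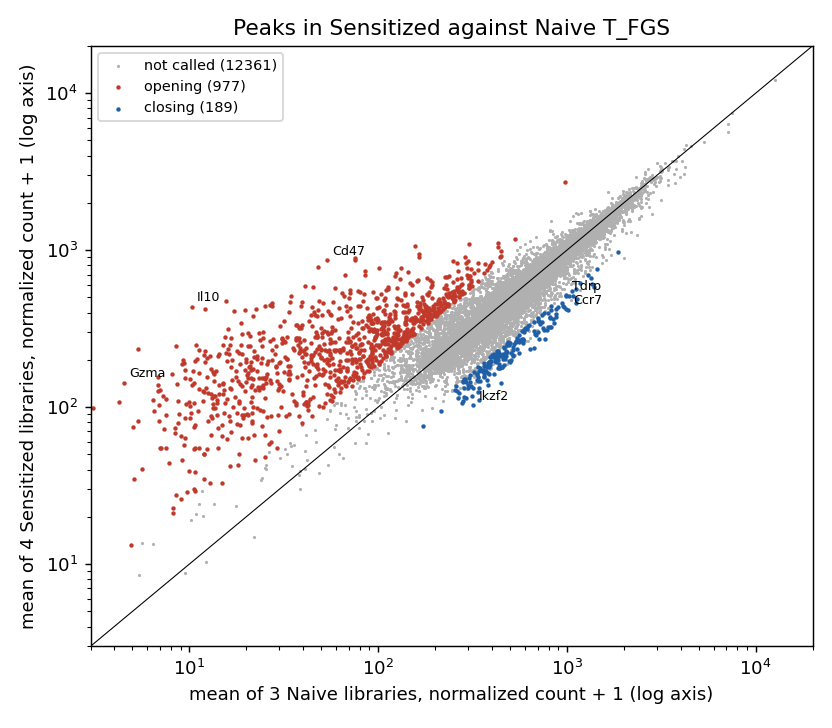
Each point is a peak, placed by its mean normalized count plus 1 in Naive and in Sensitized, on log axes, with the diagonal marking equal values. Opening peaks (977) start from low counts in Naive and reach far above the diagonal, whereas closing peaks (189) lie in a narrow band below it.

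The changes lay away from promoters. A promoter peak has its midpoint at most 1000 bp from the start of any transcript annotated as coding for a protein, and of 7670 such peaks 77 opened (1.00%) and 11 closed (0.143%). Of the 5852 other peaks with an assigned gene (distal peaks), 900 opened (15.4%) and 178 closed (3.04%). Introns held 505 opening and 87 closing peaks, and 367 and 84 lay between genes. The median distance to the nearest TSS was 30.2 kb for opening peaks and 29.4 kb for closing peaks, against 778 bp for peaks that were not called. Called peaks were also shorter (medians of 659 and 720 bp against 1001 bp) and held less GC (46.9% and 47.0% against 55.4%). The share of all counts that fell in promoter peaks was 66.3% ± 0.374 (SD, n = 3) in Naive and 65.9% ± 0.517 (SD, n = 4) in Sensitized, a difference within the spread of libraries (two-sided exact permutation test, p = 0.286, where 0.0571 is the smallest value that 7 libraries allow).

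The called peaks were also set against the peak lists that the authors made per group. Of the 977 opening peaks, 380 overlapped the Sensitized list alone, 3 overlapped both lists and 594 overlapped neither, so that these last entered the table through a group with pregnancy. Of the 189 closing peaks, 148 overlapped the Naive list alone, 29 both and 12 neither. The lists come from the same libraries and are no independent evidence.

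The 8 opening peaks with the smallest adjusted p, 1 per gene, were taken among peaks whose groups do not overlap, as were the closing ones below, so their lack of overlap is fixed by the choice and is no result. The 8 were all distal and all called in each of the 21 alternatives. Not all of these could lose a call. Dropping the fold threshold only loosened the rule, and turning off independent filtering or filtering low counts gave the same 977 and 189 calls. A peak at chr13:113319379-113320510 (GRCm39), nearest to the start of Esm1 but inside an intron of Gzmk, the gene of the cytotoxic protease granzyme K, had normalized counts of 31.7, 6.88 and 10.1 in Naive and 542, 648, 181 and 276 in Sensitized (log2 fold change 4.75 ± 0.43 (SE), adjusted p = 4.14e-25). A peak at chr9:69221552-69222316, nearest to Ice2 and inside an intron of Rora, the gene of a nuclear receptor, had 27.6, 28.5 and 21.5 in Naive and 716, 592, 197 and 279 in Sensitized (log2 fold change 4.12 ± 0.39 (SE), adjusted p = 1.82e-22). In both peaks Sensitized replicates 1 and 2 were the highest libraries.

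A peak 16.4 kb from the start of Il10, which encodes an immune-regulating cytokine (chr1:130930748-130931544), rose from 15.2, 1.97 and 10.7 in Naive to 759.7, 668, 124 and 188 in Sensitized (log2 fold change 5.58 ± 0.55 (SE), adjusted p = 4.15e-21). The peak with the smallest adjusted p lay 136 kb from Cd47, which encodes a surface protein that restrains phagocytosis (chr16:49755903-49757917), with 55.1, 41.3 and 61.2 in Naive and 1157, 1390.3, 389 and 502 in Sensitized. Sensitized replicates 1 and 2 were higher than replicates 3 and 4 at both. The other peaks of the first 8 were near Cox7c (2.60 ± 0.25, log2 fold change ± SE), Ext1 (3.18 ± 0.31, in an intron of Samd12), Slc35f3 (4.33 ± 0.42) and Lrrc27 (3.92 ± 0.39, in an intron of Stk32c). Cox7c encodes a subunit of the respiratory chain and Ext1 an enzyme of heparan sulfate synthesis. At the peak near Cox7c, 322 kb from that gene, replicates 3 and 4 reached 244 and 258, close to 222 in replicate 1.

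Closing peaks changed less than opening ones. At the peak 8.15 kb from Ccr7, the chemokine receptor that guides naive T cells into lymph nodes (chr11:99053390-99054726), normalized counts were 1258, 1068 and 720.5 in Naive and 287, 298, 592 and 493 in Sensitized (log2 fold change -1.28 ± 0.28 (SE), adjusted p = 7.77e-05). In an intron of Ikzf2, which encodes the transcription factor Helios (chr1:69720162-69720600), they were 322, 334 and 298 in Naive and 36.9, 83.2, 157 and 131 in Sensitized (log2 fold change -1.64 ± 0.37 (SE), adjusted p = 0.00016). In an intron of Tnfrsf1a, the gene of a receptor for tumor necrosis factor, they were 523, 495 and 419.5 in Naive and 145, 193, 292 and 269 in Sensitized (log2 fold change -1.09 ± 0.23 (SE), adjusted p = 5.15e-05). Sensitized replicates 1 and 2 were the lowest libraries at these 3 peaks.

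The remaining closing peaks of the first 8 were in introns of Ets1 (-0.90 ± 0.17), Acoxl (-1.22 ± 0.26), Scml4 (-1.08 ± 0.24) and Kcnj15 (-0.91 ± 0.21) and 38 bp from the annotated start of Gm8369 (-0.98 ± 0.21, not counted as a promoter because the transcripts that begin there have no annotated coding sequence), all as log2 fold change ± SE. Those of Ets1 and Kcnj15 were just past the threshold of 0.9 and lost the call in 8 and 9 of 21 alternatives. Of the 189 closing peaks, 98 were at most 0.2 past the threshold on the log2 scale, and another 118 peaks with an adjusted p under 0.1 missed it by at most 0.2.

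The central 300 bases of 4 of these peaks are shown, from the GRCm39 plus strand, because they are the 3 opening sites and the closing site with the smallest adjusted p. Capitals mark matches to any of 12 binding motifs that were searched on both strands.
Cd47 (chr16:49756761-49757060, opening): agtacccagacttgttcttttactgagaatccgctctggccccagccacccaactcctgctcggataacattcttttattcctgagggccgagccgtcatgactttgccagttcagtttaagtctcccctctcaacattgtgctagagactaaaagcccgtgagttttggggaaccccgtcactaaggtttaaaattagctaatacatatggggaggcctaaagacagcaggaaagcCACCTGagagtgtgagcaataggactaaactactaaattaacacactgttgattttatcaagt
Esm1, Gzmk intron (chr13:113319795-113320094, opening): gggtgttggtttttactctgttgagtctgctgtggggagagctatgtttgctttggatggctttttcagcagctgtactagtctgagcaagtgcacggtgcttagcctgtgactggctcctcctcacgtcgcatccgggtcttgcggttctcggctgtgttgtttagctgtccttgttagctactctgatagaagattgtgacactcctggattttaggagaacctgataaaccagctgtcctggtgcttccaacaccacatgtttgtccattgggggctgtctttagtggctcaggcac
Ice2, Rora intron (chr9:69221785-69222084, opening): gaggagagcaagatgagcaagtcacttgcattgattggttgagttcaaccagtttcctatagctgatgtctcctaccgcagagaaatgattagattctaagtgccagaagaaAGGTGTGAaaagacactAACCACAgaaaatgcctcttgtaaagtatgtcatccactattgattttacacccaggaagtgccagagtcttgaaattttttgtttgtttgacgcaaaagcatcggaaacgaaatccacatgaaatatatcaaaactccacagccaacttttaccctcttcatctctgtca
Ets1 intron (chr9:32658875-32659174, closing): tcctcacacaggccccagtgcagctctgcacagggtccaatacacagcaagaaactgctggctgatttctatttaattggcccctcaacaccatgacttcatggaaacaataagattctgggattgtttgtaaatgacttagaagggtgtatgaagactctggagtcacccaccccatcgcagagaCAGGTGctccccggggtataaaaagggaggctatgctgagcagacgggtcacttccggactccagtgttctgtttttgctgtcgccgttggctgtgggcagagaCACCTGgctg
The stretch in Rora held a T-box and a RUNX motif, the one in Ets1 held 2 E-box motifs and the one near Cd47 held 1. None of the 12 motifs was in the stretch in Gzmk, which says only that these letters are not in that window.

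Across all distal peaks the motif letters differed between opening and closing sites. Within the central 400 bp, the AP-1 motif TGANTCA was in 32.1% of 900 opening, 10.1% of 178 closing and 19.9% of all 5852 distal peaks. AP-1 proteins such as JUN, FOS and BATF act downstream of the T cell receptor. The T-box motif AGGTGTGA, bound by T-bet and Eomes, was in 9.78%, 2.81% and 3.91%, and the RUNX motif TGTGGTT in 28.7%, 21.3% and 23.6%. Those 3 motifs were thus most frequent at opening sites.

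The E-box CAGGTG, which ZEB and E proteins recognize, was in 22.2% of opening, 37.6% of closing and 28.3% of all distal peaks. The motif of TCF1 and LEF1, ACATCAAAG, was in 1.11%, 3.93% and 1.32%, the share at closing sites being 7 peaks. NFAT (TGGAAAAT) was in 4.56%, 2.81% and 2.65%, and NR4A (AAAGGTCA) in 2.78%, 0.562% and 2.05%. KLF (GGGTGTGG) gave 7.67%, 2.81% and 6.32%, IRF 8%, 6.74% and 8.37%, NFkB 1.56%, 1.69% and 1.25%, and ETS (ACCGGAAGT) 0.222%, 0.562% and 0.581%. CTCF, which holds chromatin loops, was in 1 opening, no closing and 41 of all distal peaks. The shares are descriptions of matching letters, without a test, and the E-box can overlap the T-box motif, as both hold AGGTG.

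Among the 13 gene lists, effector molecules had the highest share of opening peaks. Of 58 peaks near 15 of these genes, 30 opened (51.7%, against 7.22% of all peaks), and the median log2 fold change of all its peaks was 0.96. The share over all peaks includes 7670 promoter peaks, of which 1.00% opened. Of distal peaks 15.4% opened and 3.04% closed, and 46 of the 58 peaks here were distal. The opening peaks belonged to 12 genes: Ccl3, Ccl4, Ccl5, Fasl, Gzma, Gzmb, Gzmm, Ifng, Il10, Prf1, Serpinb9 and Xcl1. No peak of the list closed by DESeq2 or by edgeR with all libraries (2 closed with local regression offsets and 1 without Sensitized replicates 3 and 4), and 2 were lower at an unadjusted p under 0.05. The number of opening peaks was between 20 and 34 over the alternatives that keep the fold threshold and 20 without Sensitized replicates 1 and 2.

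The peak 3.93 kb from Gzma, the gene of the protease granzyme A, had normalized counts of 2.76, 3.93 and 3.79 in Naive and 250.3, 228, 43.6 and 48.3 in Sensitized (log2 fold change 5.32 ± 0.70 (SE), adjusted p = 2.88e-12). All 4 peaks assigned to Gzma opened. Near Ifng, which encodes interferon-gamma, the peak 5.47 kb away rose from 19.3, 43.3 and 66.9 in Naive to 629, 560.2, 173 and 182 in Sensitized (log2 fold change 3.13 ± 0.43 (SE), adjusted p = 3.50e-11). Near Xcl1, a chemokine that attracts cross-presenting dendritic cells, the peak 40.5 kb away rose from 34.4, 28.5 and 32.8 to 421, 425, 112 and 157. At all 3 sites the Naive libraries were low and Sensitized replicates 1 and 2 highest. Here promoters were included: the promoter peaks of Gzmb (1.92), Ifng (1.65), Ccl3 (2.35), Ccl4 (1.37), Ccl5 (1.87) and Xcl1 (2.11, all log2 fold change) were called opening, whereas those of Prf1 (0.30, adjusted p = 0.0436) and Fasl (0.45, adjusted p = 0.0581) were not called. The promoters were singled out after their values were seen.

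**Figure D3:**
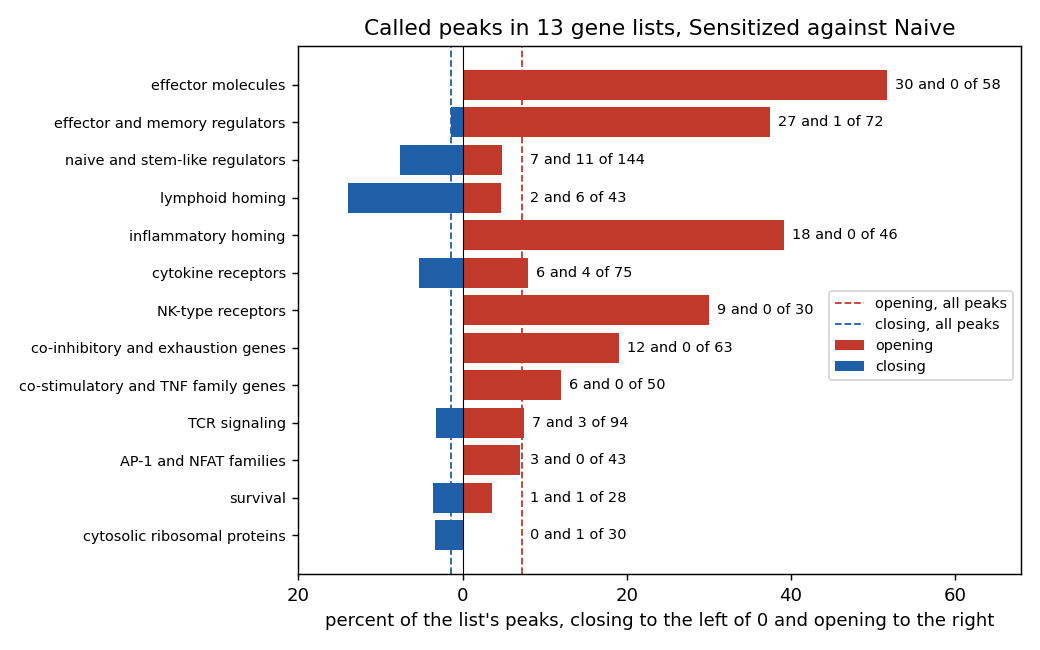
Bars give the percentage of the peaks of each of 13 gene lists that opened (right of 0) or closed (left of 0), with the numbers of opening and closing peaks of all peaks of the list beside them. Dashed lines mark 7.22% opening and 1.4% closing over all peaks. Over distal peaks alone the shares were 15.4% and 3.04%. Effector molecules reach 51.7% opening and lymphoid homing 14.0% closing.

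Regulators of effector and memory cells opened at 27 of 72 peaks (37.5%, against 7.22% of all peaks), with a median of 0.42, at Bhlhe40, Eomes, Hopx, Id2, Maf, Nfil3, Runx3, Tbx21 and Zeb2. The single closing peak was that of Ikzf2. In an intron of Tbx21, which encodes T-bet, 2.54 kb from its start, counts were 11.0, 27.5 and 11.4 in Naive and 292, 217, 68.2 and 103 in Sensitized (log2 fold change 3.35 ± 0.42 (SE), adjusted p = 3.19e-13). At Hopx, a regulator of effector T cell persistence, a peak 15.4 kb away had 93.7, 89.5 and 70.0 in Naive and 1043, 1066, 312 and 366 in Sensitized (log2 fold change 3.05 ± 0.35 (SE), adjusted p = 2.08e-15). At Zeb2, a transcription factor of terminal effector differentiation, the peak 55.4 kb away had 23.4, 26.6 and 17.7 in Naive and 254, 191, 75.7 and 85.7 in Sensitized (log2 fold change 2.76 ± 0.41 (SE), adjusted p = 6.04e-10). When peaks inside the body of a listed gene were added, which brings in Rora, 34 of 86 opened.

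Bhlhe40, a transcription factor induced by the T cell receptor, had the most opening peaks of any gene, 10 of 16, spread over 175 kb with log2 fold changes from 0.92 to 4.47. The one with the smallest adjusted p, 12.7 kb from its start, had 16.5, 18.7 and 20.8 in Naive and 636, 619, 150.2 and 263 in Sensitized (log2 fold change 4.47 ± 0.53 (SE), adjusted p = 1.36e-14). Cd47 followed with 7 of 18 over 201 kb and N4bp1, an inhibitor of NF-kB signaling, with 6 of 7 over 51.5 kb. With 5 each came Atxn1, Cd44, Il10, Rbpj, Rgs3 and Rps6kb1. All 5 peaks of Il10 opened, within 30.2 kb and with log2 fold changes from 2.89 to 5.58, and so did all 5 of Rbpj, the DNA-binding protein of Notch signaling. The best peaks of Atxn1 (5.22 ± 0.56), N4bp1 (3.87 ± 0.46), Rbpj (3.33 ± 0.42), Rgs3 (3.53 ± 0.46) and Rps6kb1 (4.37 ± 0.60, in an intron of Vmp1) are given as log2 fold change ± SE. Of the 977 opening peaks, 399 had another opening peak within 50000 bp and 13 had a closing one. Closing peaks are fewer (189), and no such count was made for peaks that were not called. No clustering is read from these numbers.

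Genes that help bring T cells into inflamed tissue, mostly chemokine receptors and integrins, opened at 18 of 46 peaks (39.1%, against 7.22% of all peaks). The median was 0.38, and peaks of Cd44, Cx3cr1, Cxcr3, Itga1, Itga4, Itgax, Itgb1 and St3gal6 were among those that opened. St3gal6 encodes a sialyltransferase. Itgax is also in the myeloid marker list, of which it holds the only opening peak. The list had 10 opening peaks without Sensitized replicates 1 and 2, and 21 opening and 1 closing without replicates 3 and 4. At Cd44, the hyaluronan receptor used to tell memory from naive T cells, 5 of 8 peaks opened, and the one 55.3 kb away had 23.4, 27.5 and 26.5 in Naive and 361, 412, 115 and 167 in Sensitized (log2 fold change 3.35 ± 0.39 (SE), adjusted p = 5.39e-15). The peak 5.50 kb from Itga1, a collagen-binding integrin, had 5.51, 15.7 and 1.26 in Naive and 344, 414, 86.0 and 127 in Sensitized (log2 fold change 5.06 ± 0.63 (SE), adjusted p = 1.42e-13). The peak near Itga4 (4.59 ± 0.55), the alpha4 integrin, also opened. With all libraries no peak of the list closed by DESeq2 or edgeR (2 were lower at an unadjusted p under 0.05).

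Lymphoid homing had more closing than opening peaks. Of 43 peaks, 6 closed (14.0%, against 1.4% of all peaks) and 2 opened, with a median of -0.16. Ccr7 had 4 closing peaks of 6, the most of any gene. The opening peaks were near Cxcr4 (2.58 ± 0.50, 216 kb away, where another peak closed) and Gpr183 (1.01 ± 0.26), a receptor for oxysterols. From Sensitized replicates 3 and 4 alone, 1 peak of the list closed and 1 opened, and from replicates 1 and 2 alone 11 closed and 7 opened.

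**Figure D4:**
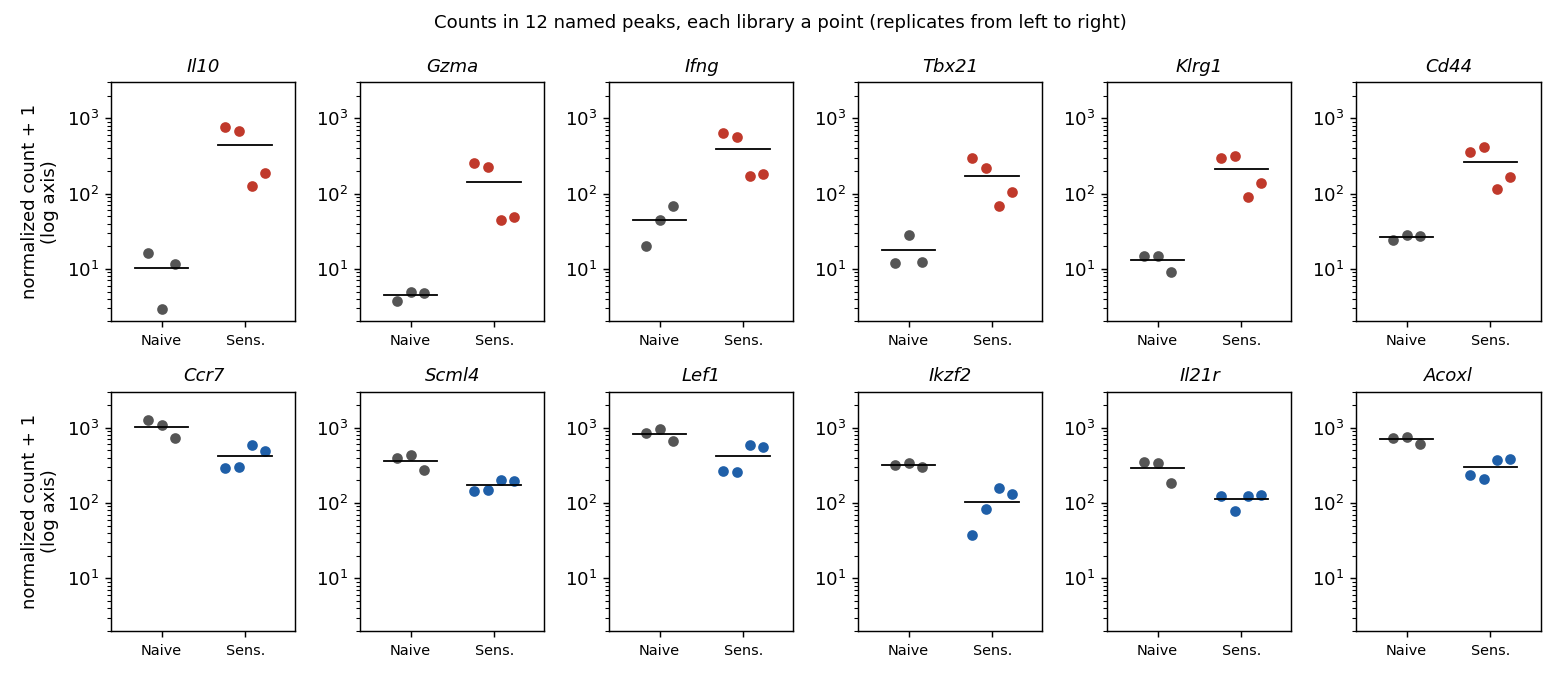
Normalized count plus 1 on a log axis for 12 peaks, named by nearest gene. Each point is a library, 3 Naive and 4 Sensitized, and lines are group means. The 6 opening peaks of the upper row lie above every Naive library in all 4 Sensitized libraries, with replicates 1 and 2 highest. In the 6 closing peaks of the lower row all 4 lie below every Naive library. For Il10, Ccr7, Scml4, Ikzf2 and Acoxl this separation was a condition of their choice.

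Regulators of naive and stem-like cells had peaks called in both directions. Of 144 peaks, 11 closed (7.64%, against 1.4% of all peaks) and 7 opened (4.86%, against 7.22% of all peaks), and the median was -0.23, with 39 of 144 peaks above 0. Of the 144 peaks 128 were distal, and of all distal peaks 3.04% closed and 15.4% opened. Lef1, a partner of TCF1, had 3 closing peaks of 13. The one 43.4 kb from its start had 851, 951 and 672 in Naive and 267, 260.5, 581 and 551 in Sensitized (log2 fold change -0.99 ± 0.25 (SE), adjusted p = 0.00107). That call was lost in 5 of 21 alternatives, 3 of which left out a single library (replicate 2 of Naive, or replicate 1 or 2 of Sensitized), and the log2 fold change came no closer to 0 than -0.55. Klf3, a repressor of the Krüppel-like family, had 2 closing peaks, the better at -1.04 ± 0.25.

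Bach2, which restrains effector differentiation, had 1 closing and 2 opening peaks. The better opening one, 58.9 kb from the gene, had 45.5, 50.2 and 35.3 in Naive and 538, 435, 148 and 195 in Sensitized (log2 fold change 2.92 ± 0.34 (SE), adjusted p = 5.39e-15), so that the groups were well apart. Ets1 had 2 peaks in each direction among 22. Its intronic peak 16.2 kb from the start rose (2.05 ± 0.32), while that 112 kb away fell from 598 ± 79.9 (SD, n = 3) to 318 ± 52.3 (SD, n = 4). At Tcf7, the gene of TCF1, none of 6 peaks was called, and their log2 fold changes ran from -0.64 to -0.09. In all, 20 genes had both an opening and a closing peak, of 725 with an opening and 158 with a closing one. The closing peaks of this list numbered 32 without Sensitized replicates 3 and 4, and 0 (DESeq2) without replicates 1 and 2.

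NK-type receptors, which memory CD8+ T cells share with natural killer cells, opened at 9 of 30 peaks (30%, against 7.22% of all peaks). Their median was 0.03, and the opening peaks belonged to Crtam, Klrb1c, Klrc1, Klrg1 and Klrk1. Klrg1, an inhibitory receptor of terminally differentiated cells, had 4 opening peaks of 5, and the one in an exon had 13.8, 13.8 and 8.20 in Naive and 297, 319, 88.3 and 137 in Sensitized (log2 fold change 4.18 ± 0.44 (SE), adjusted p = 7.36e-19). The promoter peak of Klrc1, which encodes NKG2A, had 31.7, 20.7 and 22.1 in Naive and 304, 252, 76.8 and 112 in Sensitized (log2 fold change 2.92 ± 0.42 (SE), adjusted p = 3.44e-10). Klrk1 (1.44 ± 0.32) and Klrb1c (1.17 ± 0.29) rose less. The list had 5 opening peaks without Sensitized replicates 1 and 2, and 11 opening and 2 closing without replicates 3 and 4. Klrb1c is also in the NK cell marker list, of whose genes Ncr1, Klra8, Gata2 and Kit had no peak.

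Co-inhibitory and exhaustion genes opened at 12 of 63 peaks (19.0%, against 7.22% of all peaks), with a median of 0.23, at Cd101, Entpd1, Havcr2, Nfatc1, Pdcd1 and Tox. Of the 63 peaks 48 were distal, and 15.4% of all distal peaks opened. The peak 3.02 kb from Pdcd1, the gene of PD1, had 68.9, 79.7 and 61.8 in Naive and 545, 595, 169 and 215 in Sensitized (log2 fold change 2.44 ± 0.35 (SE), adjusted p = 1.21e-10). The intronic peak of Tox, a regulator of exhausted T cells, had 15.2, 21.6 and 20.2 in Naive and 276, 316, 82.0 and 99.3 in Sensitized (log2 fold change 3.33 ± 0.41 (SE), adjusted p = 1.19e-13). All 4 peaks of Havcr2, which encodes TIM-3, opened, the promoter at 2.82 ± 0.55 with counts of 23.4, 7.87 and 7.57 in Naive and 181, 94.9, 39.0 and 35.8 in Sensitized. With local regression offsets the Havcr2 promoter was at 0.10 (adjusted p = 0.925), which ended its call. Nfatc1 opened at 1.58 ± 0.26, whereas no peak of Ctla4 or Tigit was called. The list had 6 opening peaks with local regression offsets, 7 without Sensitized replicates 1 and 2, and 16 opening and 8 closing without replicates 3 and 4.

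Cytokine receptors had 6 opening and 4 closing peaks of 75, or 8% and 5.33%. The opening share was near the 7.22% of all peaks. Of the 75 peaks 60 were distal, however, and 15.4% of all distal peaks opened. Peaks near Il6st (3.14 ± 0.34), the shared gp130 chain, Il15ra (2.52 ± 0.47) and Il12rb2 (1.49 ± 0.32) opened. A peak 6.21 kb from Il21r closed, from 353, 340.3 and 185 in Naive to 123, 77.7, 124 and 127 in Sensitized (log2 fold change -1.37 ± 0.32 (SE), adjusted p = 0.000268). Sensitized replicate 2 was the lowest there, and replicates 1, 3 and 4 lay close together.

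Co-stimulatory and TNF family genes opened at 6 of 50 peaks (12%): near Icos (2.76 ± 0.35), Tnfrsf1b (2.97 ± 0.42, in an intron of Tnfrsf8), Slamf7 (2.94 ± 0.65, at the promoter), Cd6 (1.71 ± 0.39) and Cd69. The Slamf7 promoter rested on counts of 2.76, 1.97 and 7.57 in Naive and 69.8, 40.8, 14.3 and 11.4 in Sensitized, and its sign turned under 1 alternative. T cell receptor signaling had 7 opening and 3 closing of 94 (7.45% and 3.19%), with Txk (1.35 ± 0.27) and Fyn (1.14 ± 0.23) among the former, Cd247 (-1.13 ± 0.28), which encodes the zeta chain, among the latter, and 1 peak in each direction for both Rasgrp1 (1.17 and -0.99) and Ptprc (the closing one at -1.21). The AP-1 and NFAT families had 3 opening of 43 (6.98%): Nfatc1, Fosl2 (1.10 ± 0.28) and Junb (0.94 ± 0.29). At Junb the libraries overlapped, with 270.0, 199 and 165 in Naive and 577, 485, 299.8 and 251 in Sensitized. In these last 2 lists the opening share was near the 7.22% of all peaks. Most peaks of the co-stimulatory, T cell receptor and AP-1 and NFAT lists were distal (37 of 50, 73 of 94 and 32 of 43). Of all distal peaks 15.4% opened. Without Sensitized replicates 1 and 2, the lists of cytokine receptors, co-stimulation, T cell receptor signaling and AP-1 and NFAT had at most 3 opening peaks each.

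Survival genes had 1 opening peak (Bcl2l1, 0.91 ± 0.28, where the groups overlapped) and 1 closing peak (Bid, -1.24 ± 0.34) of 28. Of 30 peaks near genes of cytosolic ribosomal proteins, taken as genes used by every cell, 1 closed, 121 kb from Rpl14 (-1.08 ± 0.35), and their median was -0.0028. The promoter of Rpl37, the one of this list with the highest count, had 1519.5, 1311 and 1538 in Naive and 1308, 1532, 1457 and 1371 in Sensitized (log2 fold change -0.04 ± 0.08 (SE), adjusted p = 0.811). The groups overlapped there. With Tdrp, which had 3 closing peaks (the best -0.94 ± 0.30), this completes the named peaks.

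Most opening peaks were also higher after sensitization in S+P C4 against N+P C1. These groups are not those contrasted above, but all 25 libraries shared 1 fit, and with it the dispersions and size factors. In S+P C4 against N+P C1, 1301 of 13527 peaks opened (9.62%) and 405 closed (2.99%) by the same thresholds. S+P C4 replicate 1 stood apart: it held 2430890 counts, against 5775115 to 12638751 in the other 3, and correlated at 0.869 with the mean of its own group and best, at 0.923, with that of N+P C5. Without it 1347 peaks opened and 824 closed. Of the 977 peaks that opened in Sensitized, 884 (90.5%) opened there too, which is 67.9% of the 1301. Part of this recurrence may be built into the table, since 594 of the 977 overlap neither the Sensitized nor the Naive list and entered through a group with pregnancy. Of the 383 opening peaks in the Sensitized list 329 (85.9%) recurred, against 555 of the other 594 (93.4%). Over all 9616 peaks of the Sensitized list 5.47% opened in S+P C4 against N+P C1, and 25.7% did over the 3007 peaks in neither list. Of the 189 closing peaks, 78 (41.3%) closed there, which is 19.3% of the 405. Without Sensitized replicates 3 and 4 the overlap was 337 of 775 closing peaks, or 83.2% of the 405, and without replicates 1 and 2 it was 3 of 10 (0.741% of the 405), where 7 of 10 had the same sign and 1 was called opening. The median log2 fold change in S+P C4 against N+P C1 was 2.12 over the 977 and -0.84 over the 189, against -0.01 over all peaks.

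The sign was the same for 975 of the 977 and 187 of the 189. None of the 977 was called closing and none of the 189 opening in S+P C4 against N+P C1 by DESeq2 or edgeR, and none had the opposite sign at an unadjusted p under 0.05. With a separate fit for each pair of groups, 846 of 941 opening peaks (89.9%) and 62 of 162 closing peaks (38.3%) were shared. The groups of this second comparison are labelled PD1-negative and come from mice after pregnancy, so the comparisons differ by more than their libraries.

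Effector molecules opened at 35 of 58 peaks in S+P C4 against N+P C1, among them all 30 that opened in Sensitized. Regulators of effector and memory cells opened at 31 of 72 (25 shared), inflammatory homing at 20 of 46 (16 shared) and co-inhibitory and exhaustion genes at 17 of 63 (12 shared). In this last list 7 other peaks closed there (11.1%, against 2.99% of all peaks). None closed in Sensitized against Naive by DESeq2 or edgeR with all libraries (2 were lower at an unadjusted p under 0.05). Without Sensitized replicates 3 and 4, 8 peaks of this list closed in Sensitized against Naive, and 1 did with local regression offsets. The naive and stem-like list had 13 opening peaks (7 shared) and 6 closing ones (2 shared), and lymphoid homing 5 opening (1 shared) and 4 closing (1 shared). The opening shares of these 2 lists, 9.03% and 11.6%, were near the 9.62% of all peaks, and their closing shares were 4.17% and 9.30%, against 2.99%. Shares over distal peaks alone were not computed for this comparison.

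For single peaks, the log2 fold change ± SE in S+P C4 against N+P C1 was 5.16 ± 0.67 near Gzma, 4.43 ± 0.54 near Il10, 3.74 ± 0.44 at Tbx21, 5.45 ± 0.53 at Klrg1 and 2.37 ± 0.36 near Pdcd1. It was -1.64 ± 0.38 at Ikzf2 and -1.08 ± 0.27 at Acoxl, which closed in both comparisons. It was -0.62 ± 0.28 near Ccr7 and -0.75 ± 0.25 at Lef1, which did not pass the call in the second comparison, and 0.04 ± 0.33 near Il21r.

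**Figure D5:**
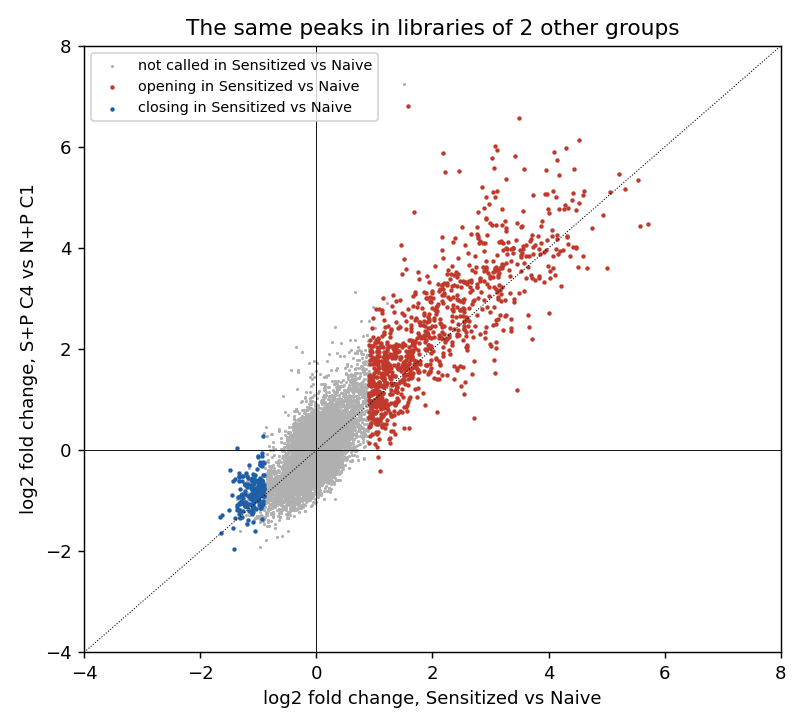
Each point is a peak, with its log2 fold change in Sensitized against Naive on the horizontal axis and in S+P C4 against N+P C1 on the vertical axis. The 2 comparisons contrast different libraries within the same fit. Of 977 opening peaks 975 lie above 0 on the vertical axis, and of 189 closing peaks 187 lie below it. The dotted line marks equal values.

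The difference between the 2 sensitization effects was tested in the same fit. It was higher in S+P C4 against N+P C1 at 126 of 12740 peaks with an adjusted p (0.989%) and lower at 24 (0.188%). Of the 977 opening peaks 37 were among the former and 4 among the latter, and of the 189 closing peaks none was called (DESeq2), with 6 at an unadjusted p under 0.05. These calls moved widely, up as well as down. They rose to 1270 higher and 923 lower with library weights (limma), 606 and 174 without Sensitized replicate 1, 365 and 226 without Naive replicate 3 and 290 and 175 without S+P C4 replicate 1. In contrast, edgeR gave 0 in both directions and 0 at an adjusted p under 0.1, with 3320 peaks at an unadjusted p under 0.05. DESeq2 without Naive replicate 1, Naive replicate 2 or Sensitized replicate 4 also called 0, with 2349, 2008 and 2431 at an unadjusted p under 0.05. In these 3 DESeq2 fits 177, 50 and 231 peaks had an adjusted p under 0.1, none of them past the fold threshold. Independent filtering on mean count had left 375 of 382, 341 of 347 and 320 of 330 peaks past that threshold without an adjusted p, so these zeros understate the calls. With p adjusted over all peaks, 14, 11 and 15 peaks had a higher and 2, 2 and 2 a lower effect, against 156 and 28 with all libraries, so that most calls were lost without the filter too. Peaks that were not called are not shown to have equal effects. The 4 opening peaks with a lower effect after pregnancy were in introns of Nrip1 (2.71 ± 0.28 in Sensitized against Naive and 0.63 ± 0.28 in S+P C4 against N+P C1), Farp1 (3.08 ± 0.41 and 1.53 ± 0.42) and Tmtc4 (1.33 ± 0.20 and 0.38 ± 0.20) and 162 kb from Cd47 (1.26 ± 0.27 and 0.23 ± 0.27), named after their values were seen. Nrip1 encodes a corepressor of nuclear receptors.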

How the data were processed

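ATAC-seq reads had been trimmed (Cutadapt 3.4), aligned to GRCm39 (Bowtie2 2.2.9), filtered for unique position and duplicates (Picard 2.21.8), and called into peaks per library in the transposase mode of Genrich 0.6.1 by the authors. They kept peaks reproducible within a group with ChIP-R, merged the 7 lists (bedtools 2.27.1) and deposited raw counts per merged peak and library, and a score per peak in each list. Here peaks were annotated from GENCODE vM39. DESeq2 1.42.0 (R 4.3.3) fitted all 25 libraries with group as the only term, with its Wald test and Benjamini-Hochberg adjustment, and the thresholds of the study. Alternatives were edgeR 4.0.16 (quasi-likelihood), limma 3.58.1 (voom, library weights), other scalings, filters, thresholds and libraries. Scripts were tested on simulated data. Pairs of libraries within Naive, Sensitized, S+P C4 and N+P C1 were checked, and none was a copy of another. Other pairs were not checked in this way.

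The comparison, the 13 gene and 7 marker lists and the 12 motifs were chosen with earlier results of these data known. Named peaks are the first 8 in each direction by adjusted p whose groups do not overlap (1 per gene), up to 4 called genes per list with, for lists under 2 called peaks, the promoter of highest count, the genes with most opening (5, and ties) and closing (3) peaks, and counts of 5 or fewer named afterwards. Gene list counts under the alternatives, the assignment by gene body and the overlap of the comparisons under other fits and by peak list, and the difference adjusted over all peaks, were added after the data were seen. Counts per library limit precision most at peaks with few reads. Results for some items are not reported here.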

Additional observations from a re-analysis of the deposited data

Results flagged for a closer look

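In the Sensitized group the peak near Il21r had 1 library far from the other 3: replicate 2 was at 77.7 normalized counts and replicates 1, 3 and 4 at 123, 124 and 127, a gap of 0.919 of the range, past the Dixon limit for 4 samples. It was the only 1 of 71 groups examined, and chance alone flags about 1 in 20.

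The effect of sensitization differed between the 2 comparisons, by the test of the difference in the DESeq2 fit, at 7 of 70 named peaks, against 126 higher (0.989%) and 24 lower (0.188%) of 12740 peaks. Those of Nrip1, Farp1, Tmtc4 and Cd47 were named because this test called them, so only those of Klrc1, Zeb2 and Junb were named for another reason. The difference (S+P C4 against N+P C1 minus Sensitized against Naive, log2 ± SE) was 1.65 ± 0.64 at the promoter of Klrc1 (adjusted p = 0.0969), 1.66 ± 0.62 near Zeb2 (adjusted p = 0.0863) and 1.04 ± 0.41 near Junb (adjusted p = 0.0992). It was -2.08 ± 0.40 in Nrip1 (adjusted p = 0.00175), -1.56 ± 0.59 in Farp1 (adjusted p = 0.0877), -0.95 ± 0.28 in Tmtc4 (adjusted p = 0.044) and -1.03 ± 0.38 at the peak 162 kb from Cd47 (adjusted p = 0.0821). In Nrip1 the N+P C1 libraries held 73.0, 99.8 and 115 normalized counts and the Naive libraries 33.1, 30.5 and 54.9, and S+P C4 held 122, 159.7, 192 and 113 beside 232, 376, 209.8 and 243 in Sensitized. None of these 7 was called by edgeR.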

How the results depend on the processing

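Opening peaks in Sensitized against Naive stayed within 1.5 times of 977 in all 7 fits that left out 1 library (844 to 1095) and under the other alternatives except library weights (645), no fold threshold (1796) and Sensitized replicates 3 and 4 alone (556). Closing peaks were less settled: 61 to 379 with 1 library left out (61 without Sensitized replicate 2, 73 without replicate 1, 73 without Naive replicate 1, 99 without Naive replicate 2, 348 without Sensitized replicate 4, 379 without replicate 3), 64 with library weights, 358 with local regression offsets, 981 without a fold threshold, 10 without Sensitized replicates 1 and 2 and 775 without replicates 3 and 4. For S+P C4 against N+P C1, 1205 to 1347 opened and 147 to 824 closed with 1 library left out, 3502 and 3670 with no fold threshold, and 832 and 797 closed with library weights and local regression offsets. Peaks with a higher effect after pregnancy numbered 0 to 606 and those with a lower effect 0 to 226 with 1 library left out. Under the other alternatives the higher ones were 225 (GC offsets), 202 (total counts), 11 (adjusted p under 0.05), 1270 (library weights), 57 (local regression), 701 (no fold threshold) and 0 (edgeR, or only the compared libraries), and the lower ones 6 (adjusted p under 0.05), 923 (library weights), 49 (local regression), 772 (no fold threshold) and 0 (edgeR, or only the compared libraries). Fitting the compared libraries alone left 2549 peaks with an unadjusted p under 0.05, of which 213 also had an adjusted one under 0.1, and there 422 of 431 peaks past the fold threshold had no adjusted p after independent filtering. Low counts for this difference therefore partly come from that filter, which left 0 to 12588 peaks without an adjusted p with 1 library left out. With p adjusted over all peaks (chosen after seeing the data), the higher ones numbered 11 to 606 and the lower ones 2 to 226 with 1 library left out, 9 and 2 in the compared libraries alone, 12 and 3 with the replicate block, and 0 and 0 by edgeR. For Sensitized against Naive every peak had an adjusted p in every fit. The Slamf7 promoter turned to -0.81 with local regression offsets. The promoter share differed by -0.584 to -0.169 percentage points with 1 library left out (two-sided exact permutation p from 0.1 to 0.667). The other causes were not tested.

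The labels do not say that a replicate number marks a shared mouse, litter or day. Deviations of same-numbered Naive and Sensitized libraries correlated at 0.185, 0.028 and 0.198, and not every library correlated best with its own number. With the replicate block, 983 peaks opened and 486 closed, and the difference between effects gave 2 and 0.

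Of 53 named opening peaks 36 and of 16 closing peaks 3 were called in all 21 alternatives, some of which could not lose a call. With 1 library left out, calls were lost for the opening peaks of Bcl2l1, Fosl2, Gpr183 and Junb and, among others, the closing peaks of Ets1, Gm8369, Kcnj15, Klf3, Lef1, Rpl14 and Tdrp.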
